A study of Mus musculus with 12 samples.

Results

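Glycolysis, lactate transport and glycogen turnover were followed through 39 genes, chosen by name for their roles in these pathways, across all 12 libraries. The 39 mouse symbols matched 40 of the 55573 rows of the count table, because Aldoa has 2 Ensembl identifiers in the GRCm38 annotation. By role the rows were 2 glucose carriers, 2 hexokinases, 8 rows of the upper and 7 of the lower glycolytic steps, 4 lactate genes, 5 genes of glycogen breakdown and 6 of glycogen synthesis, 4 genes that control fructose phosphates and 2 of the glycerol phosphate branch.

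Glycolysis splits glucose into pyruvate in a chain of cytosolic enzymes and yields ATP without oxygen. Fast muscle fibers draw most of the sugar for a burst of work from their own glycogen, reduce pyruvate to lactate with lactate dehydrogenase and release lactate through monocarboxylate carriers. Muscle fibers use tissue-specific forms of many of these enzymes (Hk2, Pfkm, Pgam2, Eno3, Pygm), while relatives such as Hk1, Pfkl, Pgam1 and Eno1 are the common forms of many other cells.

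The tissue was the extensor digitorum longus (EDL), a hindlimb muscle of mostly fast fibers, and all mice were C57BL/6. Its RNA was sequenced from 1 myofiber at a time (single fibers), from 5 pooled fibers, from 20 pooled fibers or from the entire muscle, with 3 libraries for each. The labels name no genetic change, treatment or age for any group. The SMART-Seq HT kit, which amplifies full-length cDNA from tiny inputs, was used throughout. The labels say that single myofibers were lysed directly in kit buffer and that whole muscle RNA came from a Trizol extraction, so fiber isolation and RNA preparation cannot be told apart. The labels do not say which libraries share an animal, and p-values therefore measure the spread between libraries.

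Totals ran from 4702823 to 27787120 counted reads per library. Levels are counts scaled to a common library size (CPM), each library's total being scaled with factors from the trimmed mean of M-values (TMM), and a gene is called when edgeR's quasi-likelihood test gives an adjusted p under 0.05 over all genes tested. As a measure of stray reads, 1506 receptor genes of smell and taste (Olfr, Vmn and Tas families), silent in muscle as far as known, were examined. Of them, between 4.85% and 26.7% had a read in single fibers and at most 4.85% in whole muscle. The share was over 50% in 5 libraries, 5-fiber pools 1 and 2 and all 3 pools of 20 (called receptor-rich here). It reached 97.3% in 20-fiber pool 2, whose TMM factor of 2.95 lowered its CPM. The TMM factors were 0.631, 0.5545 and 0.885 in single fibers and 0.522, 0.741 and 0.615 in 5-fiber pools. They were 1.03, 2.95 and 1.39 in 20-fiber pools and 1.597, 1.415 and 1.418 for whole muscle. Factors under 1 raise CPM and those over 1 lower it. All fiber libraries held the fast myosin Myh4 as the main form, at 85.3% to 99.5% of the reads of Myh1, Myh2, Myh4 and Myh7 against 90.2% to 90.7% in whole muscle. The summed level of 6 fibroblast markers was 189, 8.18 and 14.7 CPM in the single fibers and 3148 to 3545 CPM in whole muscle, and that of 6 adipocyte markers was at most 0.668 CPM against 1415 to 1705. The 6 endothelial markers summed to 329, 289 and 18.2 CPM in 5-fiber pools and 39.5, 45.7 and 232 in 20-fiber pools. Whole muscle held 169 to 208 CPM of them, and single fibers at most 4.76. In 5-fiber pool 1 the 4 pericyte and smooth muscle markers reached 353 CPM, against 278 to 288 in whole muscle, and the other pools were below it. The part of such cells in the levels below was not tested.

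Isolated fibers, taken as the mean of the 3 fiber groups, differed from whole muscle in about the same share of these rows as of all genes. Hexokinase 2 (Hk2) and the glucose carrier Slc2a1 were higher, Pfkl, Pgam1, the lactate carrier Slc16a3 and the second Aldoa identifier were lower, and 34 of the 40 rows did not pass the test. With the 9 fiber libraries fitted as one group only Hk2 was called (adjusted p = 0.00925), and the other 5 rows had an adjusted p of 0.0655 to 0.104. In that fit 0.977% of all genes were called higher and 1.72% lower. The 2 higher and 4 lower calls stand beside 7.46% of all 22110 genes called higher and 7.78% called lower (15.2% in either direction). A further 6 rows had an unadjusted edgeR p under 0.05 without being called. That makes 12 of the 40 rows, beside 7394 of all 22110 genes. The median log2 fold change was -0.07 over the 40 rows and 0.40 over all genes, and the latter was 0.56 with relative log expression factors and 0.69 with upper-quartile factors.

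**Figure D1:**
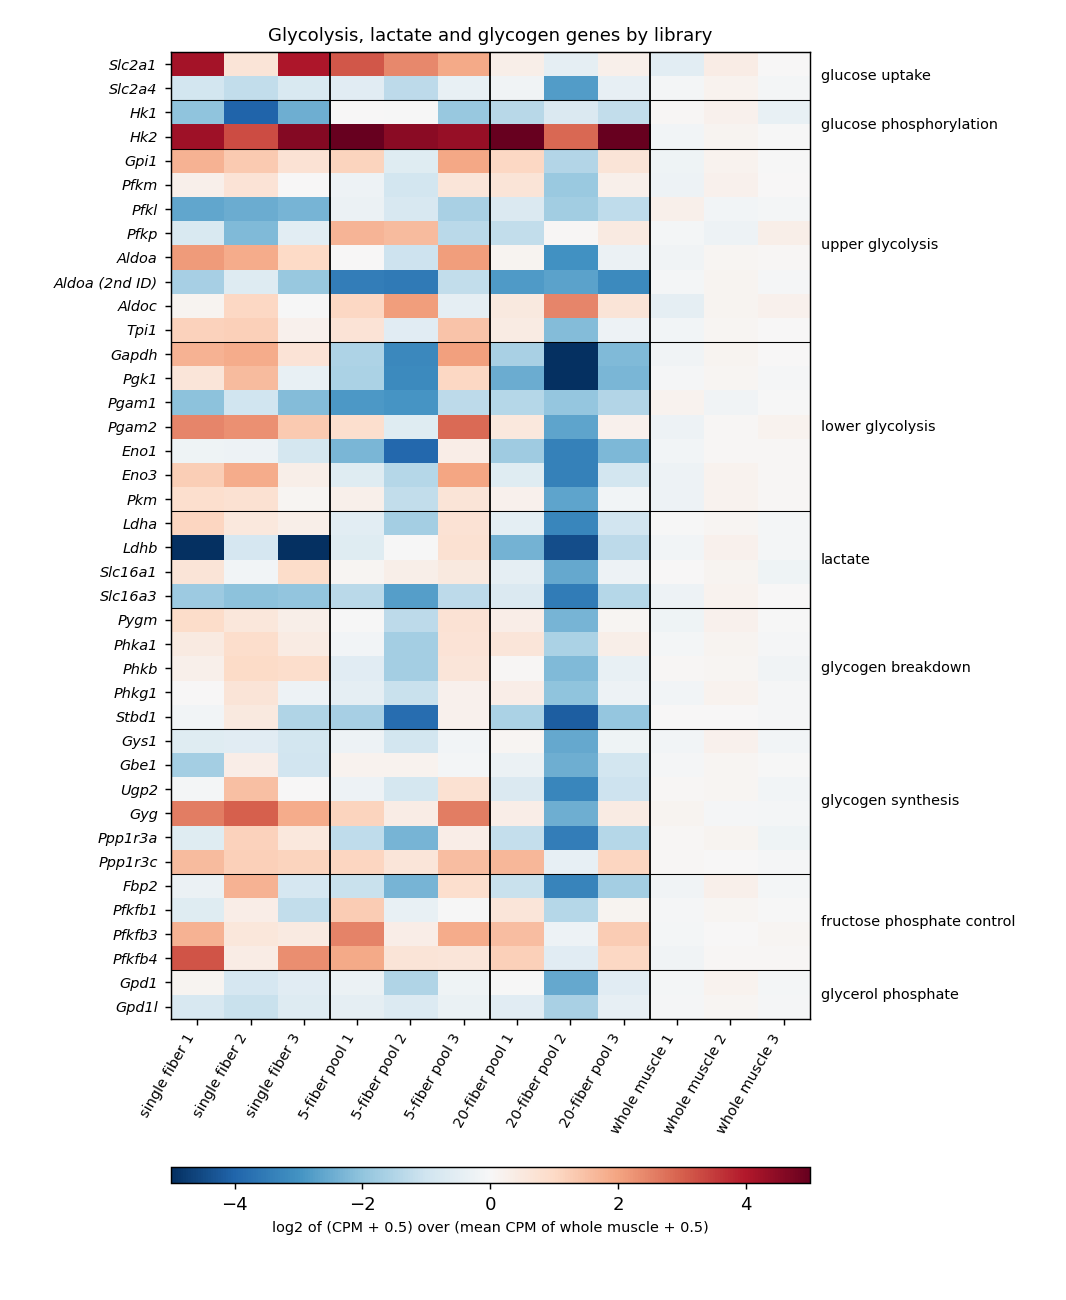
Each row is 1 of the 40 rows of glycolysis, lactate and glycogen genes and each column 1 library; the color gives the log2 ratio of CPM (offset 0.5) to the mean of whole muscle, drawn from -5 to 5, with values beyond at the end color. Hk2 is the 1 row high in all 9 fiber libraries, and 20-fiber pool 2 is low in most rows, with 36 of 40 below all whole muscle libraries.

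Hk2 codes for the hexokinase of muscle, which traps glucose inside the fiber by phosphorylating it (ENSMUSG00000000628, GRCm38 chromosome 6, 82725025 to 82774454, minus strand). It was at 1339.6, 667 and 1696 CPM in single fibers, 2524, 1599.6 and 1455 in 5-fiber pools and 2616, 515 and 2220.5 in 20-fiber pools. Whole muscle held 62.8, 77.6 and 69.2 CPM. Every fiber library lay above every whole muscle library, the lowest fiber value (20-fiber pool 2) being several times the highest of whole muscle. In isolated fibers the log2 fold change was 4.52 (SE 0.86, adjusted p = 0.00221), a 22.9-fold difference, and Hk2 was also called in each fiber group by itself, at 4.14 in single fibers, 4.67 in pools of 5 and 4.94 in pools of 20. Without whole muscle 1 the adjusted p in isolated fibers was 0.0542, and in pools of 5 it was 0.0658 to 0.0693 without any 1 whole muscle library.

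Slc2a1 (GLUT1), the carrier for basal glucose uptake (ENSMUSG00000028645, GRCm38 chromosome 4, 119108711 to 119137983, plus strand), was at 88.0, 7.21 and 79.9 CPM in single fibers, 41.3, 25.4 and 17.7 in 5-fiber pools and 5.47, 3.11 and 5.30 in 20-fiber pools. Whole muscle held 2.94, 5.78 and 4.49 CPM. Single fibers 1 and 3 and the pools of 5 were high, single fiber 2 was close to whole muscle, and the pools of 20 overlapped it. The log2 fold change was 2.15 (SE 0.61, adjusted p = 0.0265) in isolated fibers, 3.72 in single fibers (adjusted p = 0.0146), 2.61 in pools of 5 (adjusted p = 0.0176) and 0.39 in pools of 20, where it was not called (adjusted p = 0.504). The call in isolated fibers was lost without 20-fiber pool 1 (adjusted p = 0.0513), and with any 1 whole muscle library left out it was 0.0740 to 0.134. In single fibers the adjusted p without any 1 whole muscle library was 0.0654 to 0.0771, and in pools of 5 it was 0.108 to 0.125, with 0.0631 without 5-fiber pool 1.

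The insulin-regulated carrier of muscle and fat, Slc2a4 (GLUT4), went the other way. It was at 149, 119.7 and 164 CPM in single fibers, 189, 114 and 218 in 5-fiber pools and 251, 40.2 and 212 in 20-fiber pools. Whole muscle held 265, 316 and 266 CPM, more than any of the 9 fiber libraries. It fell in single fibers by 1.00 on the log2 scale (SE 0.26, adjusted p = 0.0227; 0.0779 to 0.104 without any 1 whole muscle library), and was not called in isolated fibers (-0.81, adjusted p = 0.276). Whole muscle also contains fat, and adipocyte markers moved with Slc2a4 in the single fibers; their part in this result was not tested.

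The 250 bases before the RefSeq start of 3 of the called genes (build GRCm38.p6) are printed because they show the same short sequence before genes that rose and a gene that fell. Capitals mark ACGTG or its reverse CACGT, the core of hypoxia response elements, which also lies inside the E-box CACGTG. Hk2 (chr6:82774455-82774704, minus strand) has it 226 and 52 bases before the start, Slc2a1 (chr4:119108495-119108744, plus strand) 36 bases before, and Slc16a3 (chr11:120948817-120949066, plus strand) 27 and 14 bases before.
Hk2 promoter: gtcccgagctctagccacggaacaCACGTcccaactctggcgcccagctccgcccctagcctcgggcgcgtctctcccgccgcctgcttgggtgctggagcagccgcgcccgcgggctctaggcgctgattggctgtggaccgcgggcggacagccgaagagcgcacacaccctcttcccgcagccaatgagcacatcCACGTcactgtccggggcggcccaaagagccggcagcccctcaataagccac
Slc2a1 promoter: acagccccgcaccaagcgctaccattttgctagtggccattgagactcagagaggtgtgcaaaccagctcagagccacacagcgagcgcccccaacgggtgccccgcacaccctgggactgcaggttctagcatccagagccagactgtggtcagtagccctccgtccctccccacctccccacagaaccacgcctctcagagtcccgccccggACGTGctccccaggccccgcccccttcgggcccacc
Slc16a3 promoter: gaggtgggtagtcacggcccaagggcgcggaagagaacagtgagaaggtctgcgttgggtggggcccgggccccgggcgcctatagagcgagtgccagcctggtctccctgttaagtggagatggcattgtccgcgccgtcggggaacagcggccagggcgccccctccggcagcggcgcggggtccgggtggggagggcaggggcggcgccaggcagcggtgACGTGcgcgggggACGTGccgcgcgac

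In windows of 300 bases (250 before to 50 after the start) the core was found on either strand in 19.6% of 32851 RefSeq promoters and in 23 of the 53 promoters (43.4%) of the 37 genes described here that have one in the table. Among the other called genes with a single promoter, Pgam1 held 1 core and Pfkl none. The GC box GGGCGG, a match for Sp1, was in 30 of the 53 promoters (56.6%) against 35.7% of all, and TATAAA in 3 of 53 (5.66%) against 13.6%. The muscle E-box CAGCTG was in 15 of 53 (28.3%) against 16.3%, and the E-box CACGTG in 8 of 53 (15.1%) against 7.15%. These are matches of letters in a fixed window and not sites of binding.

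The 4 rows that were lower in isolated fibers included the non-muscle forms of 2 glycolytic enzymes. Pfkl, the liver form of phosphofructokinase, which commits sugar to glycolysis (ENSMUSG00000020277, GRCm38 chromosome 10, 77986947 to 78010083, minus strand), was at 1.67, 1.88 and 2.14 CPM in single fibers, 10.4, 7.06 and 3.82 in 5-fiber pools and 7.40, 3.41 and 5.01 in 20-fiber pools. Whole muscle held 15.0, 11.3 and 11.7 CPM. Single fibers were lowest, 5-fiber pool 1 came closest to whole muscle, and the groups did not overlap. Pfkl changed by -1.61 (SE 0.38, adjusted p = 0.0102) in isolated fibers and -2.78 (SE 0.37, adjusted p = 0.00238) in single fibers. Pgam1, the phosphoglycerate mutase of brain and most other tissues (ENSMUSG00000011752, GRCm38 chromosome 19, 41911923 to 41918660, plus strand), was at 1.00, 2.66 and 0.891 CPM in single fibers, 0.368, 0.321 and 2.04 in 5-fiber pools and 1.82, 1.14 and 1.80 in 20-fiber pools. Whole muscle held 6.66, 5.03 and 5.71 CPM. All 9 fiber libraries were below whole muscle, and the log2 difference in isolated fibers was -2.13 (SE 0.58, adjusted p = 0.0229), from few reads (2 to 41 per fiber library). Of the 50-base windows in Pgam1 transcripts, 36.2% also occur in the annotated pseudogene Pgam1-ps2, so its reads are uncertain. Without any 1 whole muscle library the adjusted p in isolated fibers was 0.0529 to 0.0896 for Pfkl and 0.0840 to 0.108 for Pgam1.

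Slc16a3 (MCT4), through which glycolytic fibers export lactate (ENSMUSG00000025161, GRCm38 chromosome 11, 120948480 to 120960868, plus strand), was lower in isolated fibers. It was at 58.5, 50.1 and 52.7 CPM in single fibers, 80.7, 30.2 and 82.0 in 5-fiber pools and 125, 17.7 and 76.8 in 20-fiber pools. Whole muscle held 174, 234 and 211 CPM. The highest fiber library, 20-fiber pool 1, stayed below the lowest whole muscle library, and the single fibers lay close together. Its log2 fold change was -1.71 (SE 0.47, adjusted p = 0.0238) in isolated fibers, -1.98 (SE 0.24, adjusted p = 0.00170) in single fibers and -1.77 (SE 0.43, adjusted p = 0.0455) in pools of 5, while pools of 20 were not called (-1.24, adjusted p = 0.132). Without any 1 whole muscle library the adjusted p was 0.0649 to 0.121 in isolated fibers and 0.174 to 0.206 in pools of 5, and it was 0.0982 in pools of 5 without 5-fiber pool 1.

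The second Aldoa identifier (ENSMUSG00000114515, GRCm38 chromosome 7, 126800790 to 126809108, minus strand) lies upstream of the main gene and is annotated with a transcript subject to nonsense-mediated decay. It was at 1.92, 4.35 and 1.51 CPM in single fibers, 0.184, 0.160 and 2.70 in 5-fiber pools and 0.569, 0.682 and 0.331 in 20-fiber pools. Whole muscle held 6.58, 7.93 and 6.75 CPM, more than every fiber library, and the log2 difference was -2.64 (SE 0.63, adjusted p = 0.0104). It was also lower in single fibers (-1.51, adjusted p = 0.0401) and pools of 20 (-3.38, adjusted p = 3.69e-04). In single fibers the adjusted p was 0.0585 and 0.0649 without single fibers 1 and 3, and 0.122 to 0.147 without any 1 whole muscle library.

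The number of these rows called in isolated fibers rested on single libraries. The higher calls numbered 1 without 20-fiber pool 1, whole muscle 2 or whole muscle 3, and 0 without whole muscle 1. The lower calls numbered 1 without whole muscle 1, 2 or 3 and 7 without 5-fiber pool 3. Leaving out the 5 receptor-rich libraries left 5-fiber pool 3 alone of its group and no pool of 20. That 1 library then weighed as much as the 3 single fibers together. The 6 rows called with all libraries kept their direction, at log2 fold changes of 4.10 for Hk2, 2.70 for Slc2a1 and -2.41 for Pfkl. Pgam1 was at -1.91, Slc16a3 at -1.81 and the second Aldoa identifier at -1.61. Higher values were also fitted for Gyg (2.36), Pgam2 (2.27), Ppp1r3c (1.25), the main Aldoa identifier (1.72), Gpi1 (1.44), Gapdh (1.59), Eno3 (1.42) and Pfkfb3 (1.27). Hk1 (-2.87), Pfkp (-1.44) and Ldhb (-1.03) were lower.

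**Figure D2:**
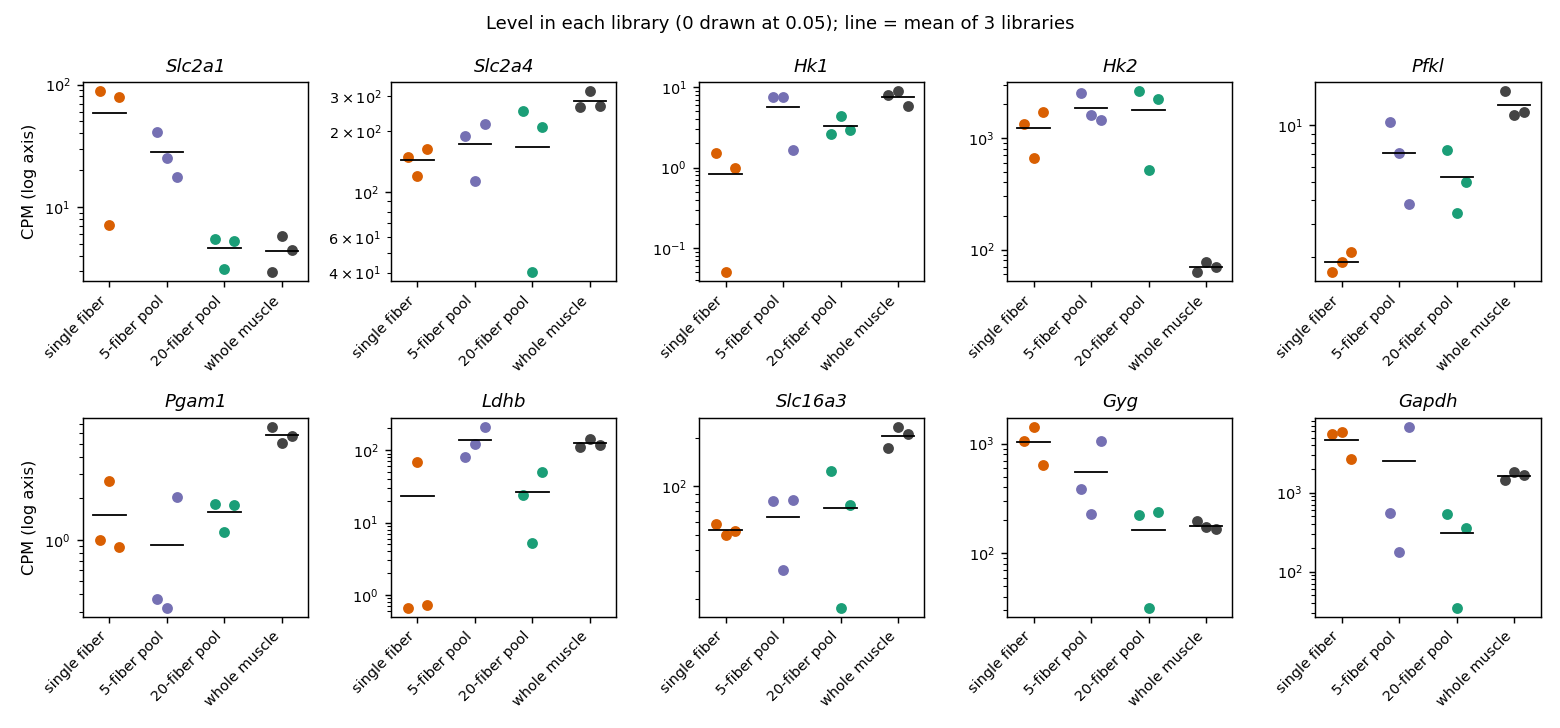
CPM of 10 genes on a log axis, 1 point per library and a line at the mean of 3, by group; a value of 0 is drawn at 0.05. Hk2 separates all fiber libraries from whole muscle upward, and Slc2a4, Pfkl, Pgam1 and Slc16a3 separate them downward, while Ldhb and Gapdh spread widely among fiber libraries.

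The same few enzymes carried most reads of the pathway in fibers and in tissue. Per kilobase of exon, the 5 highest in whole muscle were Aldoa (4806 CPM per kilobase), Eno3 (3784), Pgam2 (3432), Ldha (1304) and Tpi1 (779.6), and the same 5 genes ranked highest in each fiber group. The 5 genes with the highest mean CPM were ranked anew in each group. They took 74.4% of the summed CPM of the 40 rows in whole muscle, 82.5% in single fibers, 80.0% in pools of 5 and 68.8% in pools of 20. By mean CPM, Pygm stood in place of Tpi1 in whole muscle and pools of 20, and Gapdh did so in single fibers. None of the 5 genes highest per kilobase was called in isolated fibers.

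Aldolase A (Aldoa, ENSMUSG00000030695), which splits fructose bisphosphate, was at 60983, 51304 and 27805 CPM in single fibers, 14165, 6764 and 59447 in 5-fiber pools and 15554, 1706 and 11270.0 in 20-fiber pools. Whole muscle held 12493, 15041 and 14434 CPM. Single fibers and 5-fiber pool 3 were well above whole muscle, the other pools were near it or below, and 20-fiber pool 2 was lowest. Aldoa changed by 1.67 (SE 0.38, adjusted p = 0.0133) on the log2 scale in single fibers, with an adjusted p of 0.0817 to 0.0888 without any 1 whole muscle library, and 0.71 (SE 1.19, adjusted p = 0.779) in isolated fibers. Muscle phosphoglycerate mutase (Pgam2) was at 15742, 14114 and 7148 CPM in single fibers, 5150.1, 1914 and 20478 in 5-fiber pools and 4189, 469 and 3379 in 20-fiber pools. Whole muscle held 2397, 2969.6 and 3283 CPM. It rose in single fibers by 2.03 (adjusted p = 0.00617; 0.0504 and 0.0534 without whole muscle 1 and 2), and the pools of 20 overlapped whole muscle.

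Muscle enolase (Eno3) was at 15425, 23585 and 7987 CPM in single fibers, 4364, 2441 and 25984 in 5-fiber pools and 4272, 629 and 3498 in 20-fiber pools. Whole muscle held 5564, 7344 and 6834 CPM. The single fibers were above whole muscle without overlap, but the gene was not called (1.17, adjusted p = 0.0539). Lactate dehydrogenase A (Ldha), which turns pyruvate into lactate, was at 8988, 6269 and 5268 CPM in single fibers, 3008, 1324 and 7046 in 5-fiber pools and 3092, 448 and 2204 in 20-fiber pools. Whole muscle held 4296, 4628 and 4027 CPM, and the gene was not called in any comparison. Triosephosphate isomerase (Tpi1) was at 4808, 4928 and 2469 CPM in single fibers, 3484, 1455 and 5827 in 5-fiber pools and 2828, 482 and 1797 in 20-fiber pools. Whole muscle held 1966, 2322 and 2151 CPM. Its single-fiber difference of 0.86 did not pass the test (adjusted p = 0.0665).

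Single fibers differed from whole muscle in more of these genes than the mean over fiber groups did. The share of all genes called also rose, from 15.2% to 33.6%. Of 39 rows tested, 9 rose and 8 fell, beside 13.9% of all genes called higher and 19.8% called lower (33.6% in either direction), and the median was 0.54 against -0.12 over all genes. The risers were Hk2, Slc2a1, Gyg, Pfkfb4, Pgam2, Aldoa, Gapdh, Gpi1 and Ppp1r3c. The genes that fell were Hk1, Pfkl, Pgam1, Slc16a3, the second Aldoa identifier, Slc2a4, Gpd1l and Gys1. Before scaling by the TMM factors, the 40 rows held 7.99, 6.77 and 5.73% of counted reads in single fibers. In whole muscle they held 5.745, 6.20 and 5.79%, so the size of the rises by CPM depends on the factors. The 8 genes listed as fast fiber markers summed to 257260.0, 213130.0 and 140430.0 CPM in the single fibers and to 60584, 81578 and 78742 CPM in whole muscle. The skeletal actin Acta1 was the largest part, with 129250, 84096 and 62077 CPM in the single fibers, so the sum is not a measure of fast fibers alone. In bulk libraries fewer cells of a type and less RNA per cell cannot be told apart.

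Glycogenin (Gyg), the protein primer on which a glycogen particle is built, was at 1056, 1424 and 642 CPM in single fibers, 386, 228 and 1049 in 5-fiber pools and 223, 31.9 and 235 in 20-fiber pools. Whole muscle held 196, 172 and 166 CPM. Single fibers and the pools of 5 were all above whole muscle and the pools of 20 overlapped it. It rose in single fibers by 2.47 (SE 0.32, adjusted p = 0.00205), and this call held without each library in turn. Pfkfb4 codes for an enzyme that makes and breaks a regulatory fructose bisphosphate, an activator of phosphofructokinase distinct from the one that aldolase splits. Pfkfb4 was at 257, 36.9 and 146 CPM in single fibers, 108, 44.5 and 43.9 in 5-fiber pools and 64.8, 19.2 and 59.4 in 20-fiber pools. Whole muscle held 25.2, 30.0 and 30.0 CPM. Single fibers 1 and 3 were high and single fiber 2 was near whole muscle, and the log2 difference was 2.34 (SE 0.62, adjusted p = 0.0241). That call was lost without single fiber 1 or 3 (adjusted p = 0.0685 and 0.0632) and without any 1 whole muscle library (0.0993 to 0.103).

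Ppp1r3c, which targets protein phosphatase 1 to glycogen, was at 381, 288 and 274 CPM in single fibers, 267, 192 and 375 in 5-fiber pools and 407, 96.2 and 266 in 20-fiber pools. Whole muscle held 131, 128 and 122 CPM, less than 8 of the 9 fiber libraries. It rose in single fibers by 1.26 (SE 0.24, adjusted p = 0.00779), with 0.0626 and 0.0588 without whole muscle 2 and 3. The upstream isomerase Gpi1 rose by 1.27 (adjusted p = 0.0145; 0.0753 to 0.0863 without any 1 whole muscle library) and Gapdh by 1.44 (adjusted p = 0.0148; 0.0847 to 0.0872). Glycogen synthase of muscle (Gys1), by contrast, fell by 0.75 (adjusted p = 0.0356), from 143, 184 and 142 CPM in whole muscle to 101, 104 and 83.2 in the single fibers. Without single fiber 3 its adjusted p was 0.0576, and without any 1 whole muscle library it was 0.0960 to 0.162.

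Hexokinase 1 (Hk1), the form of brain and many other tissues (ENSMUSG00000037012, GRCm38 chromosome 10, 62268855 to 62379908, minus strand), was at 1.50, 0 and 0.980 CPM in single fibers, 7.63, 7.54 and 1.65 in 5-fiber pools and 2.62, 4.40 and 2.98 in 20-fiber pools. Whole muscle held 7.98, 8.89 and 5.81 CPM. The 0 in single fiber 2 allows up to 0.195 CPM (3 reads), and single fibers were all below whole muscle while the pools of 5 overlapped it. The log2 fold change in single fibers was -3.23 (SE 1.00, adjusted p = 0.0405), with 0.0856 without single fiber 3 and 0.112 to 0.137 without any 1 whole muscle library. Gpd1l, a relative of the glycerol phosphate dehydrogenase Gpd1, was at 10.7, 8.57 and 12.03 CPM in single fibers, 13.7, 11.6 and 14.9 in 5-fiber pools and 12.5, 5.91 and 14.2 in 20-fiber pools. Whole muscle held 18.4, 20.6 and 18.1 CPM. All fiber libraries were below whole muscle, but only single fibers passed the test (-0.90, adjusted p = 0.0469; 0.0662 without single fiber 1 and 0.128 to 0.160 without any 1 whole muscle library). For Pgam1 the single-fiber values were -1.996 and adjusted p = 0.0236, with 0.0816 to 0.105 without any 1 whole muscle library.

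The counts in single fibers moved with single libraries. The number higher was 14 without single fiber 2 and 3, 2 and 3 without whole muscle 1, 2 and 3. The number lower was 5 without single fiber 3 and 2 without whole muscle 1, 2 or 3. With the spread estimated over all 12 libraries, 4 rose and 2 fell, beside 4.5% and 8.4% of all genes.

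**Figure D3:**
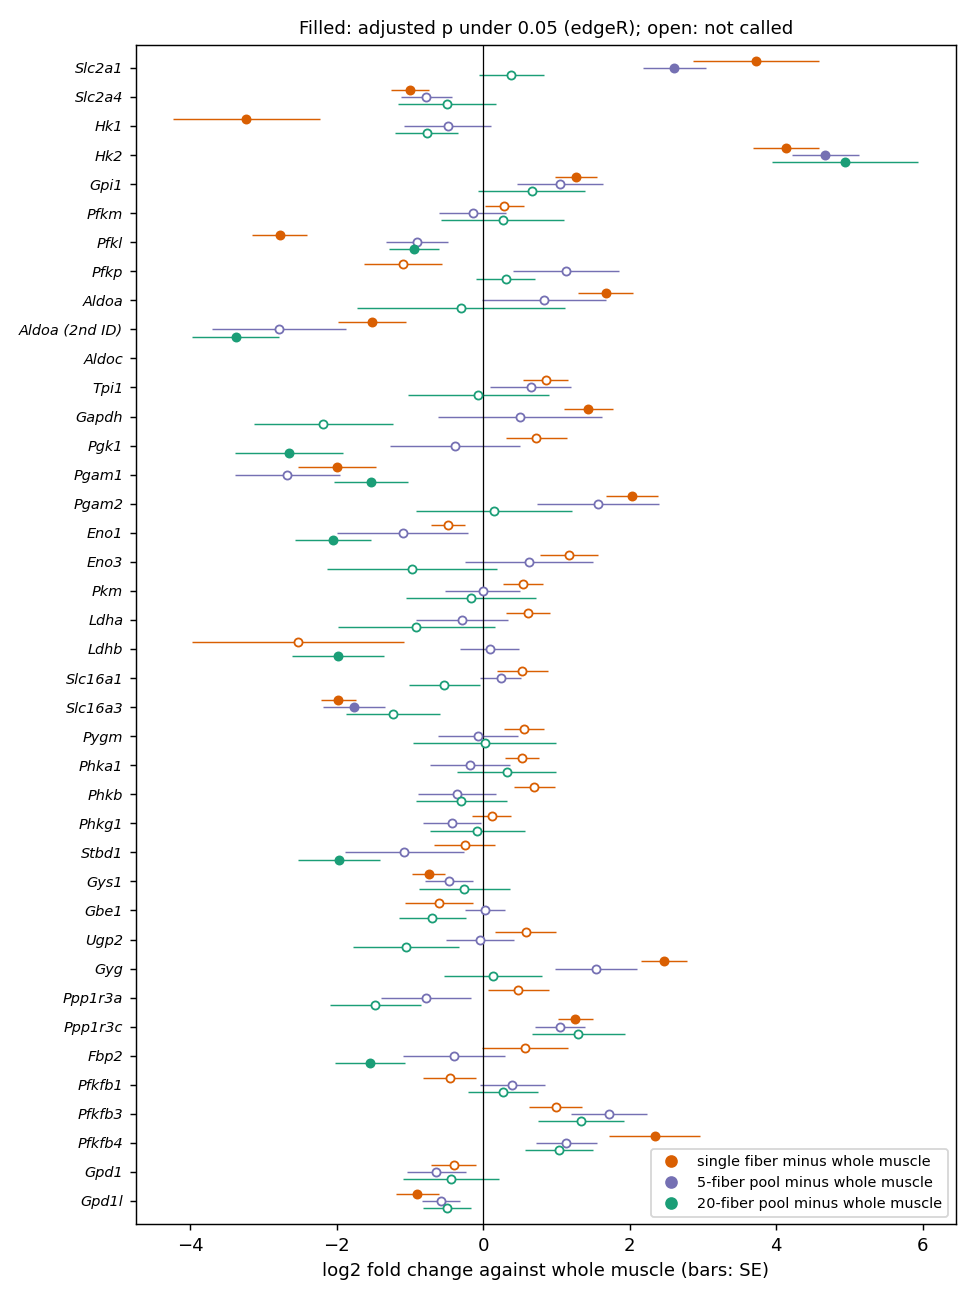
Log2 fold changes against whole muscle for the 40 rows in single fibers, pools of 5 and pools of 20, with SE bars; filled points passed the test (edgeR, adjusted p under 0.05) and open points did not. Hk2 is filled in all 3 groups at 4.14 to 4.94, and the lower glycolytic genes Gapdh, Pgk1 and Eno3 lie farther left in pools of 20 than in single fibers.

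In pools of 5 only Hk2 and Slc2a1 rose and Slc16a3 fell among 39 rows tested, beside 4.63% of all genes higher and 4.22% lower (8.85% in either direction). The median was -0.07 over these rows and -0.03 over all genes. The number higher was 1 without 5-fiber pool 1, 6 without pool 2, 7 without pool 3 and 0 without any 1 whole muscle library. The number lower was 0 without 5-fiber pool 1 or any 1 whole muscle library and 12 without pool 3. With 5-fiber pool 3 as the single library left of its group, 19 rows were higher and 7 lower, the lone library being assumed to vary like whole muscle. In that fit 19.4% of all genes were higher and 27.0% lower.

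In pools of 20, Hk2 rose and 8 rows fell of 39 tested, beside 30.3% of all genes higher and 13.5% lower (43.9% in either direction), with a median of -0.43 against 0.38 over all genes. Besides Pfkl (-0.95), Pgam1 (-1.53) and the second Aldoa identifier, the genes that fell were Pgk1, Eno1, Ldhb, Stbd1 and Fbp2. The adjusted p was lost without 20-fiber pool 3 and whole muscle 2 and 3 for Pfkl (0.0858, 0.106 and 0.109) and for Pgam1 (0.0598, 0.0784 and 0.0971). In this group Hk1, the second Aldoa identifier and Aldoc were within the background density. That means at or under the 99th percentile of reads per kilobase of the receptor genes, 29.9 in pools of 20. Pfkl (216 reads over 6675 exon bases) and Pgam1 (69 reads over 1982) were only a little above it. The part of background reads in their levels in pools of 20 was not tested.

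Phosphoglycerate kinase (Pgk1), the first ATP-making step, was at 569, 1137 and 289 CPM in single fibers, 127, 40.8 and 771 in 5-fiber pools and 66.7, 8.57 and 76.6 in 20-fiber pools. Whole muscle held 365, 405 and 362 CPM. The 5 libraries rich in receptor reads were lowest, single fiber 3 was also below whole muscle, and the other 3 fiber libraries were above it. The log2 fold change in pools of 20 was -2.65 (SE 0.74, adjusted p = 0.00851), and 53.9% of its 50-base windows also occur in annotated transcripts of other genes, mostly the retrogene Pgk1-rs7. The widely expressed enolase Eno1 was at 101, 96.1 and 62.0 CPM in single fibers, 23.5, 7.22 and 144 in 5-fiber pools and 33.7, 10.5 and 24.2 in 20-fiber pools. Whole muscle held 106, 119 and 121 CPM. The pools of 20 differed from it by -2.05 (SE 0.52, adjusted p = 0.00464) on the log2 scale. Its reads are uncertain too, with 26.0% of windows shared, mostly with Eno1b.

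Lactate dehydrogenase B (Ldhb), the form of heart and slow fibers that favors lactate use, had the widest range of these genes among the single fibers, though not among the pools, where Gapdh ranged wider. It was at 0.668, 68.9 and 0.713 CPM in single fibers, 80.8, 123 and 211 in 5-fiber pools and 23.8, 5.23 and 49.9 in 20-fiber pools. Whole muscle held 111, 144 and 116 CPM. Single fibers 1 and 3 held 8 reads each and single fiber 2 held 1062, while the pools of 5 ranged around the whole muscle level. In pools of 20 the log2 fold change was -1.98 (SE 0.63, adjusted p = 0.0185), with 0.0661 without whole muscle 2, and in single fibers it was not called (-2.53 (SE 1.45, adjusted p = 0.211)). Slow fiber markers (8 genes) summed to 25.6, 15.1 and 27.7 CPM in the single fibers and to 549.9, 1063 and 718 in whole muscle. The sum in the single fibers was mostly Atp2a2 (20.4, 13.2 and 27.0 CPM). Of the fast myosins, Myh1 was at 49.0, 1006 and 16.1 CPM in them, highest in the same single fiber 2, and the part of fiber type in the Ldhb values was not tested. Of the Ldhb windows, 21.0% also occur in the pseudogene Gm5514.

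Stbd1, which binds glycogen and guides it to vesicles for breakdown, fell in pools of 20 by 1.97 (adjusted p = 0.00980), and the gluconeogenic Fbp2 of muscle fell by 1.55 (adjusted p = 0.0151; 0.0852 and 0.0506 without whole muscle libraries 2 and 3). The count of lower rows in pools of 20 was 16 without 20-fiber pool 2, 4 or 5 with whole muscle 2 or 3 left out, respectively, and that of higher rows was 2 without 20-fiber pool 1 and 6 without pool 2. Pools of 20 had the widest scatter. The median SD of log2 CPM over the 40 rows was 1.29 there, 1.02 in pools of 5, 0.59 in single fibers and 0.16 in whole muscle. Over all genes at 10 CPM or more it was 0.91, 0.65, 0.54 and 0.16 in the same order of groups.

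Among the fiber groups, single fibers and pools of 20 differed. Of 39 rows tested, 8 were higher in single fibers and 0 lower, beside 8.52% of all genes higher and 27.5% lower (36.1% in either direction). The 8 were Gapdh (3.66 (SE 1.10, adjusted p = 0.0193)), Pgk1 (3.41 (SE 0.80, adjusted p = 0.00728)), Slc2a1 (3.28 (SE 0.73, adjusted p = 0.00727)), Gyg (2.37 (SE 0.78, adjusted p = 0.0284)), Fbp2, Ppp1r3a, Stbd1 and Eno1. The number higher was 4, 2 and 4 without single fibers 1, 2 and 3, and 5 and 4 without 20-fiber pools 2 and 3. The number lower was 1 without single fiber 1, single fiber 2 or 20-fiber pool 1. DESeq2 called 13 higher and 2 lower, beside 3.56% and 27.2% of the 50310 genes it was run on.

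Gapdh, the dehydrogenase often taken as a reference gene, was at 5463, 5949.8 and 2635 CPM in single fibers, 559.9, 178 and 6846 in 5-fiber pools and 534, 35.0 and 352 in 20-fiber pools. Whole muscle held 1461, 1811 and 1665 CPM. It was low in exactly the 5 receptor-rich libraries, single fibers and 5-fiber pool 3 being above whole muscle. The 2 mitochondrial rRNAs also differed, at 38.3, 34.2 and 2.39% of reads in 5-fiber pools and 12.5, 7.67 and 6.60% in 20-fiber pools. They made up 5.32, 3.15 and 7.21% in single fibers and 2.34% to 2.76% in whole muscle. Gapdh shares 25.1% of its 50-base windows with other annotated transcripts, among them those of 213 pseudogenes, and how reads with several matches were counted is not given in the sources used here. Whether background reads, mitochondrial rRNA content or shared sequence had a part in these Gapdh and Pgk1 values was not tested. The Gapdh call against pools of 20 was lost without single fiber 1, 2 or 3 (adjusted p = 0.0848, 0.0634 and 0.0880) and without 20-fiber pool 1 or 3 (0.0770 and 0.105), and the Gyg call without the same 5 libraries (0.101, 0.1002, 0.0929, 0.0594 and 0.0639).

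Of the other calls between single fibers and pools of 20, Slc2a1 and Pgk1 held without each library in turn. Fbp2 and Stbd1 were lost without single fiber 2 (adjusted p = 0.128 and 0.0825) and without 20-fiber pool 2 (0.109 and 0.0969), and Eno1 without any 1 single fiber (0.0769, 0.0529 and 0.0526) or 20-fiber pool 3 (0.0703).

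Single fibers and pools of 5 differed in 0 of 39 rows, beside 0.0157% of all genes (2 genes, both lower in single fibers), and pools of 5 and pools of 20 in 0 of 38, beside 0% of all genes, by edgeR. At an unadjusted edgeR p under 0.05 there were 2 and 3 rows, beside 1132 of 12700 and 1502 of 17113 genes. DESeq2 called 0 and 1. Of the genes it was run on, 0.0718% and 0.0673% were higher and 1.85% and 0.162% lower, in the same order. Without 5-fiber pool 3, 2 rows were higher and 1 lower in single fibers than in pools of 5, and 1 row was higher in pools of 5 than in pools of 20.

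Shares of a gene among its paralogs, in reads per kilobase within a library, do not depend on scaling between libraries. Of 9 sets tested, 3 differed between the 9 fiber libraries and whole muscle, and in each the non-muscle form had the smaller share in fibers. The smallest p that 9 against 3 libraries can give in the two-sided exact permutation test is 0.00455, and p-values were adjusted over the 9 sets.

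Hk1 made up 0.0784, 0 and 0.0404% in single fibers, 0.211, 0.329 and 0.0791% in 5-fiber pools, 0.0700, 0.594 and 0.0938% in 20-fiber pools and 8.16, 7.42 and 5.54% for whole muscle of the summed Hk1 and Hk2 reads. All fiber libraries were below whole muscle, and the mean fell from 7.04% ± 1.35 (SD, n = 3) to 0.166% ± 0.189 (n = 9; exact permutation p = 0.00455, the smallest possible, adjusted p = 0.0409). The level of Hk2 was higher in every fiber library, while that of Hk1 in the pools of 5 overlapped whole muscle. Pgam1 was at 0.00270, 0.00799 and 0.00528% in single fibers, 0.00302, 0.00711 and 0.00422% in 5-fiber pools, 0.0184, 0.103 and 0.0225% in 20-fiber pools and 0.118, 0.0718 and 0.0736% for whole muscle of Pgam1 and Pgam2, with 8 of 9 fiber libraries below whole muscle (exact permutation p = 0.0136, adjusted p = 0.0409). Eno1 was at 0.211, 0.132 and 0.250% in single fibers, 0.174, 0.0955 and 0.179% in 5-fiber pools, 0.254, 0.538 and 0.223% in 20-fiber pools and 0.613, 0.523 and 0.568% for whole muscle of Eno1 and Eno3, again with 8 of 9 below (exact permutation p = 0.00909, adjusted p = 0.0409). In both sets 20-fiber pool 2 was the library inside the range of whole muscle.

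For the carriers the share moved the other way without passing the test. Slc16a1 (MCT1), the carrier linked to lactate uptake, was at 57.7, 47.5 and 64.8% in single fibers, 39.9, 67.4 and 46.5% in 5-fiber pools, 22.5, 31.2 and 35.8% in 20-fiber pools and 22.9, 19.3 and 17.2% for whole muscle of Slc16a1 and Slc16a3, above whole muscle in 8 of 9 fiber libraries (exact permutation p = 0.0227, adjusted p = 0.0511). The adjusted p was 0.0364 without 20-fiber pool 1 and 0.0409 without 20-fiber pool 2. Its level was 66.5, 37.7 and 80.8 CPM in the single fibers and 43.1, 46.6 and 36.5 in whole muscle, not called. Slc2a1 was at 36.9, 5.63 and 32.5% in single fibers, 17.8, 18.1 and 7.45% in 5-fiber pools, 2.11, 7.13 and 2.42% in 20-fiber pools and 1.09, 1.78 and 1.65% for whole muscle of Slc2a1 and Slc2a4, above whole muscle in 9 of 9 fiber libraries (exact permutation p = 0.0591, adjusted p = 0.106).

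The remaining sets did not pass the test. Ldhb was at 0.0157, 2.27 and 0.0285% in single fibers, 5.36, 16.4 and 5.94% in 5-fiber pools, 1.60, 2.40 and 4.56% in 20-fiber pools and 5.17, 6.16 and 5.74% for whole muscle of Ldha and Ldhb (exact permutation p = 0.636, adjusted p = 0.818), from 0.0157% in single fiber 1 to 16.4% in 5-fiber pool 2. Pfkm, the muscle phosphofructokinase, held 97.7% to 99.9% of its set in fibers and 98.7% to 99.3% in whole muscle, and its level was not called in any comparison. The platelet form Pfkp was at 5.92, 1.88 and 7.04 CPM in single fibers, 35.0, 32.3 and 3.75 in 5-fiber pools and 4.21, 11.0 and 14.4 in 20-fiber pools. Whole muscle held 9.76, 8.78 and 12.8 CPM, and 5-fiber pools 1 and 2 were highest, but the gene was not called. Aldoc, the brain aldolase, made up at most 0.170% of its set, with at most 3.26 CPM in any library, and Gpd1l made up 2.13% to 7.27% of Gpd1 and Gpd1l in fibers against 3.91% to 4.24% in whole muscle. Gpd1, which links glycolysis to glycerol and the mitochondrial shuttle, was at 287, 147 and 176 CPM in single fibers, 214, 90.5 and 227 in 5-fiber pools and 259.9, 44.0 and 177 in 20-fiber pools. Whole muscle held 242, 296 and 245 CPM, and the gene was not called. The 3 shares that passed the test did so without 20-fiber pool 1 or 2 and not without any 1 of the other 10 libraries (adjusted p = 0.0545 to 0.123). The smallest possible p is 0.00606 with 1 fiber library left out and 0.0182 with 1 whole muscle library left out. These losses follow in part from the smaller number of arrangements. The test does not separate that part from a dependence on the library left out. The Hk1 share of every fiber library stayed below that of every whole muscle library in each of these cases.

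**Figure D4:**
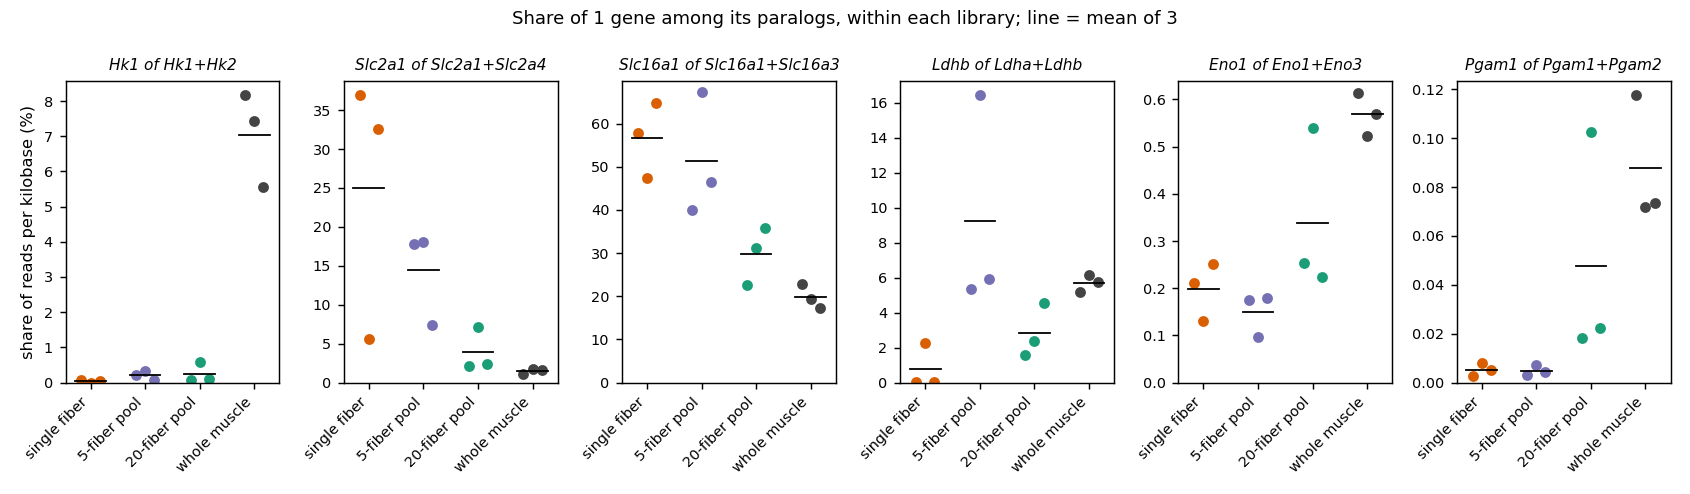
Share in percent of 1 gene among the reads per kilobase of its paralogs in each library (points) with the mean of 3 (line), by group; each panel has its own axis from 0. Hk1, Eno1 and Pgam1 have smaller shares in fibers than in whole muscle apart from 20-fiber pool 2 for Eno1 and Pgam1, the larger shares of Slc2a1 and Slc16a1 did not pass the test, and Ldhb runs from 0.0157% to 16.4% among fiber libraries.

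Set against the reads of the 8 genes listed as fast fiber markers, the pathway's summed reads overlapped between the groups. The summed reads of the 40 rows per 1000 reads of the 8 fast fiber markers (Myh1, Myh2, Myh4, Acta1, Ckm, Tnnt3, Atp2a1 and Actn3) were 492, 573 and 461 in single fibers, 547, 431 and 567 in 5-fiber pools, 534, 482 and 528 in 20-fiber pools and 594, 537 and 518 for whole muscle. By CPM the same sum ran from 6039.6 in 20-fiber pool 2 to 141690.0 in 5-fiber pool 3.

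On that scale Hk2 was at 5.21, 3.13 and 12.1 in single fibers, 32.8, 34.9 and 5.82 in 5-fiber pools, 32.5, 41.1 and 35.9 in 20-fiber pools and 1.04, 0.951 and 0.879 for whole muscle, above whole muscle in 9 of 9 fiber libraries. Gpi1 and Ppp1r3c, which rose in single fibers by CPM, were at 4.48, 4.05 and 4.07 and 1.48, 1.35 and 1.95 there against 4.92, 4.81 and 4.34 and 2.16, 1.57 and 1.54 in whole muscle, near its range or below it. Gyg was above whole muscle in 7 of 9 fiber libraries, and in all single fibers (4.10, 6.68 and 4.57 against 3.23, 2.10 and 2.11). Pgam2 was also above it in all single fibers. Gapdh (21.2, 27.9 and 18.8 against 24.1, 22.2 and 21.1) and the main Aldoa identifier (237, 241 and 198 against 206, 184 and 183) overlapped it there. Slc2a1 and Pfkfb4 were above it in single fibers 1 and 3 and below it in single fiber 2. Pfkl was below whole muscle in 7 of 9 fiber libraries and above it in 20-fiber pool 2 (0.272 against at most 0.248). Ldha, Eno1, Slc16a3, Stbd1, Ppp1r3a and the second Aldoa identifier were below whole muscle in 9 of 9. Slc16a3 was at 0.227, 0.235 and 0.376 in single fibers, 1.05, 0.659 and 0.328 in 5-fiber pools, 1.55, 1.41 and 1.24 in 20-fiber pools and 2.87, 2.87 and 2.68 for whole muscle, and Ldha at 34.9, 29.4 and 37.5 in single fibers, 39.1, 28.9 and 28.2 in 5-fiber pools, 38.4, 35.7 and 35.6 in 20-fiber pools and 70.9, 56.7 and 51.1 for whole muscle. These ratios are descriptions and were not tested.

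Of the 5 genes of glycogen breakdown, Stbd1 was called as given above, and the other 4 were not called in any comparison. Glycogen phosphorylase of muscle (Pygm), which frees sugar from glycogen, was at 4072, 3158 and 2609.7 CPM in single fibers, 2152, 876 and 3536 in 5-fiber pools and 2723, 435 and 2322 in 20-fiber pools. Whole muscle held 1837, 2518 and 2109 CPM. The single fibers, 5-fiber pool 3 and 20-fiber pool 1 were above that range. With the phosphorylase kinase subunits Phka1, Phkb and Phkg1, which switch Pygm on, its log2 fold changes in isolated fibers ran from -0.17 to 0.18. In glycogen synthesis, Gbe1 (branching enzyme), Ugp2 (which makes UDP-glucose) and Ppp1r3a (the main glycogen-targeting subunit of muscle) were not called against whole muscle in any group. Ppp1r3a was higher in single fibers than in pools of 20 (1.97, adjusted p = 0.0310), at 157, 533 and 338 against 103, 21.2 and 87.6 CPM, and lost the call without any 1 of 5 of the 6 libraries (adjusted p = 0.0534, 0.123, 0.0922, 0.0581 and 0.0568).

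Pyruvate kinase (Pkm), the last ATP-making step, was at 2395, 2289.5 and 1441 CPM in single fibers, 1589, 565 and 2101 in 5-fiber pools and 1564, 214 and 1218 in 20-fiber pools. Whole muscle held 1134, 1504 and 1382 CPM, and the gene was not called. Of the enzymes that set the level of the regulatory fructose bisphosphate, Pfkfb3 was at 285, 126 and 115 CPM in single fibers, 476, 105 and 307 in 5-fiber pools and 248, 70.0 and 206 in 20-fiber pools. Whole muscle held 78.8, 84.9 and 90.1 CPM. In 8 of 9 fiber libraries the level was above whole muscle, yet it was not called in isolated fibers (1.30, adjusted p = 0.125) or in any group. Pfkfb1, the muscle and liver form, had log2 fold changes between -0.46 and 0.40 in the 3 fiber groups, without a call.

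Beyond these 39 genes, 71 further genes of the same pathways and their regulators were examined, of which 63 were tested in isolated fibers, with 2 higher and 3 lower, beside the 7.46% and 7.78% of all genes. Tbc1d1, a brake on GLUT4 traffic in muscle, rose by 1.56 (adjusted p = 0.0326). It was at 95.3, 54.8 and 109 CPM in single fibers, 47.1, 40.1 and 44.7 in 5-fiber pools and 65.8, 17.4 and 41.5 in 20-fiber pools. Whole muscle held 18.5, 18.9 and 17.5 CPM, less than 8 of the 9 fiber libraries. Pgm2l1, a glucose bisphosphate synthase, rose by 1.40 (adjusted p = 0.0394). The brain and liver glycogen phosphorylases were lower. Pygb was at 0.250, 0.0649 and 0 CPM in single fibers, 0.551, 3.37 and 0.0658 in 5-fiber pools and 1.02, 5.46 and 2.08 in 20-fiber pools. Whole muscle held 6.66, 6.25 and 6.38 CPM, more than every fiber library (-3.12 (SE 0.74, adjusted p = 0.0104)). Pygl was at 1.00, 0.130 and 0 CPM in single fibers, 2.66, 3.85 and 0.132 in 5-fiber pools and 0.797, 7.66 and 1.75 in 20-fiber pools. Whole muscle held 11.3, 4.89 and 5.67 CPM (-2.36 (SE 0.78, adjusted p = 0.0466)), and 20-fiber pool 2 was above 2 of the whole muscle libraries, so the groups overlapped. Pygb in all fiber groups, and Pygl in single fibers and pools of 20, were within the background density of receptor reads. Ppp1cc, a catalytic subunit of protein phosphatase 1, fell by 1.98 (adjusted p = 0.00469).

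Single fibers had 10 of 57 further genes higher and 9 lower, beside 13.9% and 19.8% of all genes. The largest increases were in the coactivator Ppargc1a (2.93) and Tbc1d1 (2.22). Pygb and the phosphatase subunit Ppp1r3b fell to background density in them, with 4 and 1 reads in the 3 single fibers together against 450 and 101 in whole muscle, and no fold is given for so few reads. Pools of 5 had 3 of 58 higher (4.63% of all genes), Ppargc1a (1.63), the oxygen sensor Egln3 (1.60) and Tbc1d1 (1.20), and 0 lower. Pools of 20 had 13 of 62 higher and 7 lower, beside 30.3% and 13.5% of all genes. The highest fitted changes, of Ppp1r3g and Hkdc1, rest on 54 and 77 reads in the 3 pools, within background density, against 0 and 2 in whole muscle, and are not read as increases. The mitochondrial pyruvate carrier subunit Mpc1 (-4.20) and Ppp1cc (-3.03) had the largest decreases. Between single fibers and pools of 20, 8 of 60 were higher, led by Mpc1 (4.61) and Ppp1ca (3.32), and 11 lower, beside 8.52% and 27.5% of all genes. The lowest fitted values, of Ppp1r3b and Gys2, rest on 1 and 2 reads in the single fibers against 97 and 88 in the pools, where Ppp1r3b was within background density. Mpc1 was at 146, 450.4 and 104 CPM in single fibers, 18.1, 8.18 and 372 in 5-fiber pools and 9.22, 3.03 and 9.64 in 20-fiber pools. Whole muscle held 157, 160.0 and 178 CPM. The low libraries were the same 5 as for Gapdh and Pgk1. The other comparisons of fiber groups had 0 called by edgeR, with 3 of 51 and 6 of 62 genes at an unadjusted p under 0.05. Over all genes these numbers were 1132 of 12700 and 1502 of 17113.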

How the data were processed

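The measurements are bulk RNA-seq of 12 libraries in 4 groups of 3, grouped by the labels' titles. The authors deposited 1 table of raw read counts per Ensembl gene, without normalization, per the file's whole-number values. Per the submitters' processing notes HISAT2, SAMtools and featureCounts were used on GRCm38 (mm10); their versions, strand setting, treatment of multi-mapped reads and annotation release are not given in the sources used here, so genes with shared or antisense sequence are uncertain. Of 55573 identifiers, 55480 matched GENCODE vM21, which gave symbols, positions and exon lengths, and 93 did not match.

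Pairs of groups were fitted by themselves, with 6 libraries each, in edgeR 4.0.16 in R 4.3.3 (TMM, filterByExpr, glmQLFit, glmQLFTest), with Benjamini-Hochberg adjustment over all genes tested and a threshold of 0.05. For isolated fibers, 1 model of all 12 libraries contrasted whole muscle with the average of the 3 fiber groups. The comparisons with whole muscle share its 3 libraries, and those among fiber groups share fibers. The fits were run on simulated counts with the same small spread in every library. The fiber libraries scatter far more than that, so the simulation does not show how the fits perform on them. An exact permutation test, two-sided, compared the paralog shares. Alternatives were DESeq2 1.42.0, other scaling factors, no filter on low counts, a replicate block, another spread and each library left out. Leaving out the 5 libraries with reads in over 50% of receptor genes was added after seeing the data. Shared sequence is the share of 50-base windows found in annotated transcripts of other genes. Promoters are RefSeq's, build GRCm38.p6.

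The members, gene lists and rules for naming genes were chosen with earlier results of these data known. All 39 genes are accounted for. Per-library values are given for genes called in isolated fibers, for the 5 highest per kilobase in whole muscle, for up to 4 called genes with the largest change in each direction of the other comparisons and for all paralog sets. Of the further pathway genes, those called in isolated fibers and up to 2 in each direction of each other comparison are named. The few other genes given by library (Ppp1r3c, Gys1, Pygm, Pkm, Pfkfb3, Ppp1r3a, Mpc1) were chosen after their values were seen.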

Additional observations from a re-analysis of the deposited data

Results flagged for a closer look

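The difference from whole muscle was not the same in single fibers and in pools of 20 for 8 genes, by the direct test between the 2 fiber groups (edgeR, adjusted p under 0.05). None of these 8 calls held with the replicate block, where 0% of all genes were called higher. The log2 differences were 3.66 for Gapdh, 3.41 for Pgk1, 3.28 for Slc2a1, 2.37 for Gyg, 2.13 for Fbp2, 1.97 for Ppp1r3a, 1.74 for Stbd1 and 1.56 for Eno1. Against whole muscle Gapdh stood at 1.44 in single fibers and -2.18 in pools of 20, Pgk1 at 0.73 and -2.65, Slc2a1 at 3.72 and 0.39, and Gyg at 2.47 and 0.13. All 3 pools of 20 had reads in over 50% of the receptor genes and no single fiber did, so that in this comparison such reads and the number of fibers cannot be told apart. Within the pools of 5, the 2 libraries of that kind had Gapdh at 559.9 and 178 CPM and the third 6846 CPM, Pgk1 at 127 and 40.8 against 771, and Slc2a1 at 41.3 and 25.4 against 17.7.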

How the results depend on the processing

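Counts of these genes called moved with several settings. In isolated fibers 5 were higher with upper-quartile factors, 6 with DESeq2, 1 with the 9 fiber libraries as one group (0 lower) and 10 without the 5 receptor-rich libraries. Over all genes the shares called higher were 9.58%, 10.2%, 0.977% and 7.63% in the same order. In single fibers 4 were higher and 2 lower with the spread from all 12 libraries, beside 4.5% and 8.4% of all genes. In pools of 5, DESeq2 gave 5 higher and 3 lower, no filter on low counts 3 lower, both RLE factors and the 12-library spread 0 lower, and leaving out the receptor-rich pools, which leaves 1 library with a borrowed spread, 19 higher and 7 lower (19.4% and 27.0% of all genes). In pools of 20, upper-quartile factors and DESeq2 each gave 4 higher, no filter 2 higher and the 12-library spread 4 lower. Single fibers had 2 genes lower than pools of 5 with no filter. Against pools of 20 they had 4 higher with no filter, 13 higher and 2 lower with DESeq2 and 1 lower with the 12-library spread. DESeq2 called 1 gene higher in pools of 5 than in pools of 20.

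Leaving out 1 library, the calls ranged from 0 to 3 higher and 1 to 7 lower in isolated fibers, 2 to 14 and 2 to 11 in single fibers, 0 to 7 and 0 to 12 in pools of 5 and 1 to 6 and 4 to 16 in pools of 20. Single fibers against pools of 5 gave 0 to 2 higher and 0 to 1 lower, against pools of 20 2 to 6 and 0 to 1, and pools of 5 against pools of 20 0 to 1 and 0. The fiber minus muscle difference in share ranged from -7.62 to -6.32 points for Hk1, -0.0788 to -0.0534 for Pgam1, -0.378 to -0.317 for Eno1, 23.4 to 29.0 for Slc16a1, 10.1 to 14.5 for Slc2a1, -2.92 to -0.871 for Ldhb, 0.0175 to 0.340 for Pfkm, 0.00477 to 0.0261 for Aldoc and -0.259 to 0.384 for Gpd1l. For Gpd1l the sign turned without 5-fiber pool 2 (-0.216) and 20-fiber pool 2 (-0.259), and for Pfkm with plain read counts (-0.0840). The isolated-fiber log2 fold of Eno3 ran from -0.38 (without 5-fiber pool 3) to 0.40, and that of Ldha to 0.50 without the 5 receptor-rich libraries. In each of these cases the cause was not tested.

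Replicate numbers are shared between groups, and whether they pair the libraries is not known. Same-numbered deviations from means of 3 libraries correlated between -0.24 and 0.61 with mixed signs, which is too few libraries to decide it. With the replicate block 4 genes were lower in single fibers (15.0% of all genes). In pools of 5, 1 was higher and 0 lower (0.867% and 0.698% of all genes). In single fibers against pools of 20, 0 were higher (0% of all genes), with an edgeR adjusted p of 0.0903 to 0.163 for the 8 genes called without it. The shares of Hk1 (-6.87 points), Pgam1 (-0.0684) and Eno1 (-0.340) had an adjusted p of 0.0938 with the block (exact permutation test). With 3 libraries a group, 4702823 reads in the smallest and counts under 100 for Hk1, Pfkl and Pgam1 in most fiber libraries, small changes of low genes were not detectable.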

Other observations

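Partners and regulators of the pathway, listed beside the 39 genes, moved in both directions in single fibers. Of the chaperones that carry monocarboxylate carriers to the membrane, Bsg rose (1.11 (SE 0.31, adjusted p = 0.0278)) and Emb fell (-1.93 (SE 0.55, adjusted p = 0.0302)), where the carrier Slc16a3 fell. Epm2a, the glycogen phosphatase laforin, rose (1.11 (SE 0.34, adjusted p = 0.0394)), as did the AMP-activated kinase subunit Prkaa2 (1.34 (SE 0.25, adjusted p = 0.00749)). Of the GLUT4 traffic regulators Tbc1d1 rose (2.22 (SE 0.35, adjusted p = 0.00392)) and Tbc1d4 fell (-2.08 (SE 0.37, adjusted p = 0.00625)). In the oxygen-sensing group Egln1 rose (1.22 (SE 0.26, adjusted p = 0.0110)) and Vhl fell (-1.38 (SE 0.41, adjusted p = 0.0365)). All p-values are from edgeR on the 6 libraries of the 2 groups, and these genes were chosen after their values were seen.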
